A study of Homo sapiens with 16 samples.

Results

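The later response of AsPC-1 cells to ICG-001 was read 24 h after the drug was added. AsPC-1 is an epithelial cell line grown from the ascites of a human pancreatic adenocarcinoma, and it is known to lack working p53. The cells were kept in RPMI medium with serum and received 10 µM ICG-001 or the matching volume of the vehicle DMSO. The comparison rests on 3 arrays of cells given ICG-001 and 3 arrays of cells given DMSO, which were all the arrays of the series labelled with 24 h of either agent, 6 of 16. They were chosen by these labels alone. A further 6 arrays hold the same pair of treatments at 6 h and enter the same fit, so they share in the estimate of spread behind the 24 h tests, and they show where the later response differed. Fitted on the 6 arrays at 24 h alone, 1036 genes were called in place of 1192, and of the called genes named here ALDH1L2, BAD, INHBE and TNFSF10 lost the call. The other 4, from cells given a control siRNA or an siRNA against CTNNB1 (20 nM) and read at 48 h, were not used here except in alternative settings. All arrays come from 1 cell line. Replicates within a group are called biological in the labels, which do not state whether the cultures were separate, so the p-values measure the spread between these arrays only.

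ICG-001 was developed as an inhibitor of Wnt signalling. It binds CBP, the acetyltransferase encoded by CREBBP, and is described to keep β-catenin from using this coactivator at its target genes. In the Wnt pathway a ligand at the cell surface stabilises β-catenin, which enters the nucleus and joins TCF factors on DNA, whereas secreted antagonists such as SOSTDC1 and membrane ligases such as RNF43 damp the signal. CBP also serves many other transcription factors, so a drug that binds it can reach genes with no link to β-catenin.

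Each value is the fluorescence intensity of a probe set, the group of short probes that reads a transcript, as the authors deposited it on a linear scale. Changes are differences of log2(intensity + 16) between the means of 3 arrays, ICG-001 minus DMSO, so a rise of 1 is a 2-fold rise and the added 16 understates the change of dim genes. A gene was called, as risen or fallen, where its adjusted p was under 0.05, by limma with Benjamini-Hochberg adjustment over 6442 probe sets with 1 named gene, and each of the 5250 genes was read by its brightest probe set. The deposited table holds only 9554 probe sets, whose values all had a coefficient of variation of at least 0.4 across the 16 arrays, so genes that varied little are outside every count. No level is compared between different genes, since probe sets differ in how strongly they bind. In RNA from a whole culture, fewer cells of a kind and less RNA per cell cannot be told apart.

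At 24 h 1192 of the 5250 genes were called, which is 22.7% of those tested. Of these 779 rose (14.8% of the genes tested) and 413 fell (7.87%). Every count of a gene list below is to be read against these shares. Rises of at least 2-fold numbered 206 and falls of that size 84 (5.52% of the genes tested in all), and 24 genes rose and 9 fell at least 4-fold. The 3 ICG-001 arrays lay wholly above or below the 3 DMSO arrays in 1160 of the called genes, against 1716 genes (32.7%) among all 5250. For the 20 largest rises and 20 largest falls below, this separation was a condition of the choice, so it adds no support. The median change of all genes was 0.09. The balance between the directions rests on the deposited scaling: after quantile normalization, which forces the same distribution of values on every array, the median was -0.02, and 515 genes rose while 658 fell. Where that step moves a called gene named here by over 1.5 times, ends its call or gives a call to a named gene that had none, its value is given beside the deposited one. The arrays had median intensities of 21.14 to 28.6, and the mean intensity was 134.7 to 136.8 with DMSO and 171.3 to 178.9 with ICG-001; the part of this shift in the balance was not tested.

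**Figure D1:**
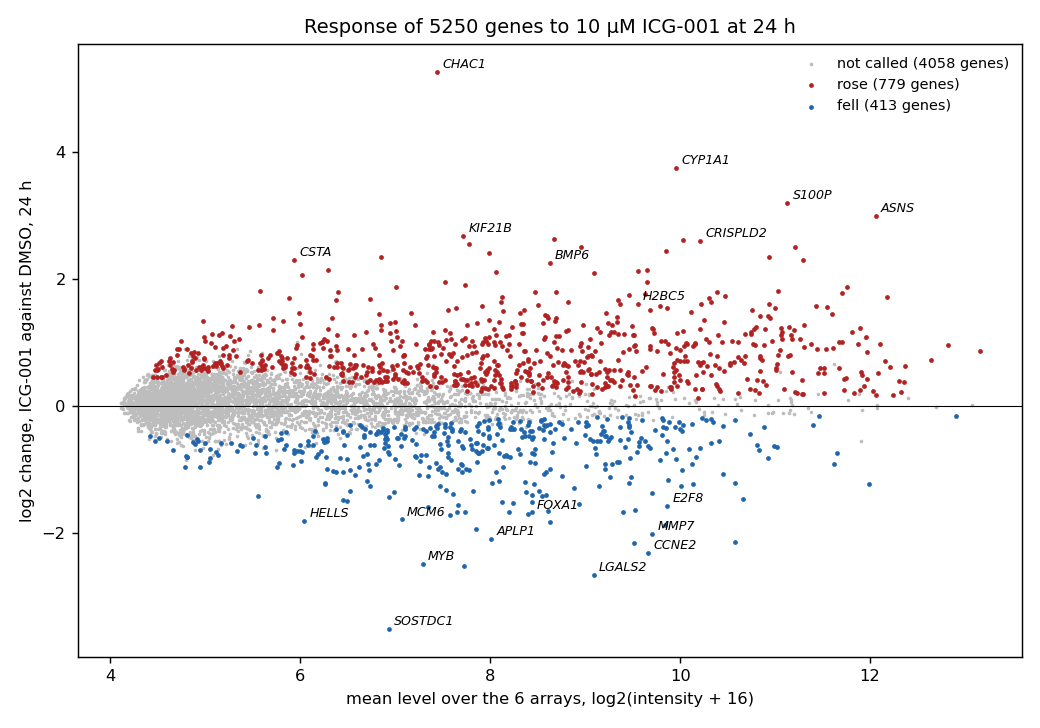
Log2 change at 24 h of each of 5250 genes (vertical axis, ICG-001 minus DMSO) against its mean level over the 6 arrays (horizontal axis, log2 of intensity plus 16). Points are genes, with 779 risen in red, 413 fallen in blue and the rest in grey; CHAC1 stands alone at 5.27, and SOSTDC1 is the lowest at -3.52.

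Markers of cell types were read, but the table left out genes that varied little, so they cannot settle the identity of the culture. Of 12 markers of pancreatic duct carcinoma lines 6 were measured, among them KRT19 and MUC1. Of the 6, 2 rose and 1, KRT7, fell (-1.01). Their summed intensity was 3912.2 to 4477.6 with DMSO and 9674.7 to 10007.9 with ICG-001, an increase carried by S100P. No islet marker of 13 was among the genes read. Of 14 acinar markers 2 were measured, and the sum of 4743.9 to 5394.0 with DMSO and 8039.4 to 8491.4 with ICG-001 is nearly all PRSS2, a trypsinogen gene (log2 change 0.72, 0.11 and not called after quantile normalization). The 6 measured fibroblast markers of 11 summed to 324.1 to 443.5 and 387.4 to 416.9, the 4 endothelial markers of 9 to 50.6 to 80.4 and 61.9 to 115.6, and the 2 leukocyte markers of 13 to 25.4 to 33.5 and 20.5 to 40.6. CTNNB1, EP300, AXIN2, MYC and CCND1 were not among the genes read. CREBBP, the gene of the drug's described target, was near background with 10.4, 5.42 and 6.60 with DMSO and 2.01, 7.68 and 8.02 with ICG-001 (log2 change -0.11, not called).

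Of the gene lists read here, the one with the most rises in number was that of the integrated stress response and amino acid supply. By share of measured members the shorter histone list (5 of 6 risen) and aryl hydrocarbon receptor list (4 of 5) stood higher. In this response, kinases that sense a lack of amino acids, misfolded protein or missing haem phosphorylate the initiation factor eIF2, general translation slows, and the transcription factor ATF4 is made and switches on genes for amino acid synthesis, import and tRNA charging. Of 72 listed genes 36 were measured, 27 rose, 1 fell and 8 were not called, with a median log2 change of 1.11 against 0.09 for all genes. After quantile normalization 26 rose and 2 fell. At 6 h, where 13.5% of all genes were called, 27 members rose and 1 fell.

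The promoters of 4 of these genes are shown because each rose and holds the core letters of the ATF4 response element near its start. They are stretches of RefSeq promoters in GRCh38.p14, written 5′ to 3′ on the gene's own strand, and capitals mark a match to TGATGNAA or its reverse complement TTNCATCA.
CHAC1: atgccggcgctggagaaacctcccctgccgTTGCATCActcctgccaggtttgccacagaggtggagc
ASNS: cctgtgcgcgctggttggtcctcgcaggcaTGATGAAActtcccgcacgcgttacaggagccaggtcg
AARS1: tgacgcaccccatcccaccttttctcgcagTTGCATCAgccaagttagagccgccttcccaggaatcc
ATF3: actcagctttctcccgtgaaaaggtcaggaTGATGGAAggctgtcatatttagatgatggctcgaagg
They lie at chr15:40953232-40953299 (plus strand), chr7:97872439-97872506 (minus strand), chr16:70289656-70289723 (minus strand) and chr1:212565186-212565253 (plus strand). The window searched ran from 250 bases before the start to 50 after it, 1 promoter a gene, and no match overlapped a match to another motif searched. On either strand the motif stood in 5 of the 30 measured members with a promoter in the table (16.7%) and in 3.67% of all 27305 promoters. The fifth was CARS1. Over all genes it stood in 16 of 609 risen genes with a promoter (2.63%) and in 3.33% of 3122 genes not called, a lower share in the risen ones. The table held promoters for 77.3% of the 5250 genes, so the shares of the list and of the risen genes both cover only genes with a promoter in it. Neither share was tested. The other motifs searched on either strand were the E2F site given with the replication genes, the aryl hydrocarbon receptor core TTGCGTG and the NF-kB site, which is GGGAA, any base and TTCC. The receptor core stood in 0 of 4 promoters of its group (1.15% of all promoters). The NF-kB site stood in 4 of 27 promoters of the inflammatory list (14.8%, against 0.443% of all promoters). These were CXCL2 and CXCL3, which rose, and CXCL5 and CXCL6, which were not called. A match describes the letters of the window and says nothing of binding.

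Among the regulators, 7 of 9 measured rose and none fell. TRIB3, a pseudokinase that feeds back on the pathway, read 1123, 1039 and 1189 with DMSO and 5639, 5697 and 5283 with ICG-001 (log2 change 2.30 ± 0.05 (SE), adjusted p = 1.25e-15). DDIT3, which encodes the stress factor CHOP, rose by 1.15 on the log2 scale, and ATF3, a factor of the same family, by 0.94. JDP2, a repressor of that family, rose by 1.96. ATF4 itself rose by 0.96 (0.57 after quantile normalization). CEBPG, a dimer partner of ATF4, rose by 0.98 (0.48 after quantile normalization), and PPP1R15A, the phosphatase subunit that ends eIF2 phosphorylation, by 0.94. Both members that were not called are ATF5, at -0.32 (-0.43 and called after quantile normalization, adjusted p = 0.0235), and EIF2AK3, the ER-stress kinase PERK, at 0.01.

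Of 8 measured synthesis genes 6 rose. ASNS, asparagine synthetase, read 1523, 1481 and 1474 with DMSO and 12004, 12231 and 11843 with ICG-001 (log2 change 3.00 ± 0.04 (SE), adjusted p = 1.53e-18). PSAT1, the aminotransferase of serine synthesis, read 929.8, 1027 and 978 with DMSO and 5849.96, 5499 and 5569 with ICG-001 (log2 change 2.51 ± 0.05 (SE), adjusted p = 7.65e-16). CTH, which makes cysteine from cystathionine, read 359, 368 and 371 with DMSO and 1678, 1748 and 1575 with ICG-001 (log2 change 2.14 ± 0.05 (SE), adjusted p = 1.14e-14). In all 3 genes every ICG-001 array exceeded every DMSO array. PCK2, the mitochondrial form of phosphoenolpyruvate carboxykinase, was not on the list and read 844, 875 and 842 with DMSO and 4580.4, 4357 and 4306 with ICG-001 (log2 change 2.35 ± 0.05 (SE), adjusted p = 5.27e-16). The mitochondrial folate enzymes SHMT2 and MTHFD2 rose by 1.12 and 1.11. ASS1, which joins citrulline and aspartate on the way to arginine, rose by 1.74. ALDH1L2, another mitochondrial folate enzyme, was the member that fell (-0.55). It was near background in all 6 arrays and its other probe set was called up, so its direction is uncertain. It was -0.60 to -0.37 (adjusted p = 0.057 to 0.219) without ICG-001 replicate 2 or 3 or DMSO replicate 1, 2 or 3.

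Of 4 measured amino acid import genes 3 rose, and SLC43A1 was not called (0.40). SLC7A5, the large neutral amino acid carrier, rose by 1.87, SLC1A4, a carrier of serine and alanine, by 1.57, and SLC7A11, the cystine carrier, by 0.79. Of 6 tRNA synthetases 4 rose, from CARS1 at 0.40 (0.17 and not called after quantile normalization) through SARS1 (0.97, 0.32 after quantile normalization) and AARS1 (1.17, 0.55 after quantile normalization) to WARS1 at 1.38 (0.87 after quantile normalization). After quantile normalization 3 of the 6 were called. LARS1 and VARS1 were not called, at 0.13 and -0.12.

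Of the stress effectors 7 of 9 rose. CHAC1, a glutathione-degrading enzyme and a standard readout of ATF4 activity, had intensities of 25.1, 7.40 and 6.59 with DMSO and 1072, 1112 and 1005 with ICG-001 (log2 change 5.27 ± 0.16 (SE), adjusted p = 1.3e-13). The DMSO arrays were near background, and none of the ICG-001 arrays was. Others restrain growth signalling. SESN2, a leucine sensor that inhibits mTORC1, read 186, 196 and 195 with DMSO and 1177, 1172 and 1167 with ICG-001 (log2 change 2.51 ± 0.05 (SE), adjusted p = 9.23e-16). GDF15, a secreted stress cytokine, read 145, 163 and 135 with DMSO and 1074, 981 and 953 with ICG-001 (log2 change 2.64 ± 0.07 (SE), adjusted p = 3.7e-14). DDIT4, another brake on mTORC1, rose by 1.72 (1.08 after quantile normalization), and VEGFA, the vascular growth factor, by 1.81. The groups did not overlap in any of these genes. CCNG2, an atypical cyclin, rose by 0.67 (0.22 after quantile normalization), and the seventh was CDKN1A, given below with the cell cycle. SESN3 and KLHL24 were not called, at 0.47 and -0.01, but 2 of the 3 probe sets of KLHL24 were called up, with changes as high as 1.34, so its value rests on the choice of the brightest.

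Within the stress list the later response was smaller in more members than it was larger. Of the 36 members, the 24 h effect was below the 6 h effect in 11 and above it in 3 by the test of the difference itself, which called 9.81% of all genes (5.62% upward and 4.19% downward). SESN2 had a log2 change of 3.55 at 6 h and 2.51 at 24 h (difference -1.04 ± 0.07 (SE), adjusted p = 6.86e-08). GDF15 went from 4.11 to 2.64 (difference -1.47 ± 0.11 (SE), adjusted p = 6.84e-08). CCNG2 went from 1.86 to 0.67 (difference -1.20), MTHFD2 from 1.92 to 1.11 (difference -0.81) and DDIT3 from 1.76 to 1.15 (difference -0.61). The 3 with a larger effect at 24 h were ASS1, from 0.44 to 1.74 (difference 1.30), SLC7A5, from 1.25 to 1.87 (difference 0.62), and WARS1, from 0.92 to 1.38 (difference 0.45). In SLC7A5 the ICG-001 mean was lower at 24 h, 6594.06 against 7678.88 at 6 h. Its DMSO mean went from 3224.04 to 1805.46. CHAC1 was at 5.99 and 5.27, and its difference of -0.72 was not called (adjusted p = 0.0646). After quantile normalization this difference was -0.73 and called (adjusted p = 0.0432).

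Genes of the endoplasmic reticulum gave a mixed account. This compartment folds secreted proteins, and its sensors raise chaperones and disposal enzymes when folding lags. Only 8 of 33 listed genes were measured, of which 5 rose and 1 fell (median 0.83). ERN1, the sensor kinase and nuclease IRE1, read 468, 476 and 464 with DMSO and 1434, 1336 and 1332 with ICG-001 (log2 change 1.51 ± 0.05 (SE), adjusted p = 2.93e-13). HERPUD1, which serves disposal of misfolded protein, rose by 1.17 (0.65 after quantile normalization). DNAJB9, a co-chaperone, rose by 0.96 (0.44 after quantile normalization). XBP1, the factor that ERN1 splices, rose by 0.85 (0.22 after quantile normalization), but by 0.24 and without a call when its probe sets were averaged. CANX, calnexin, rose by 0.81. HSP90B1, the ER-resident HSP90 chaperone, fell (-0.46, -0.75 after quantile normalization).

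**Figure D2:**
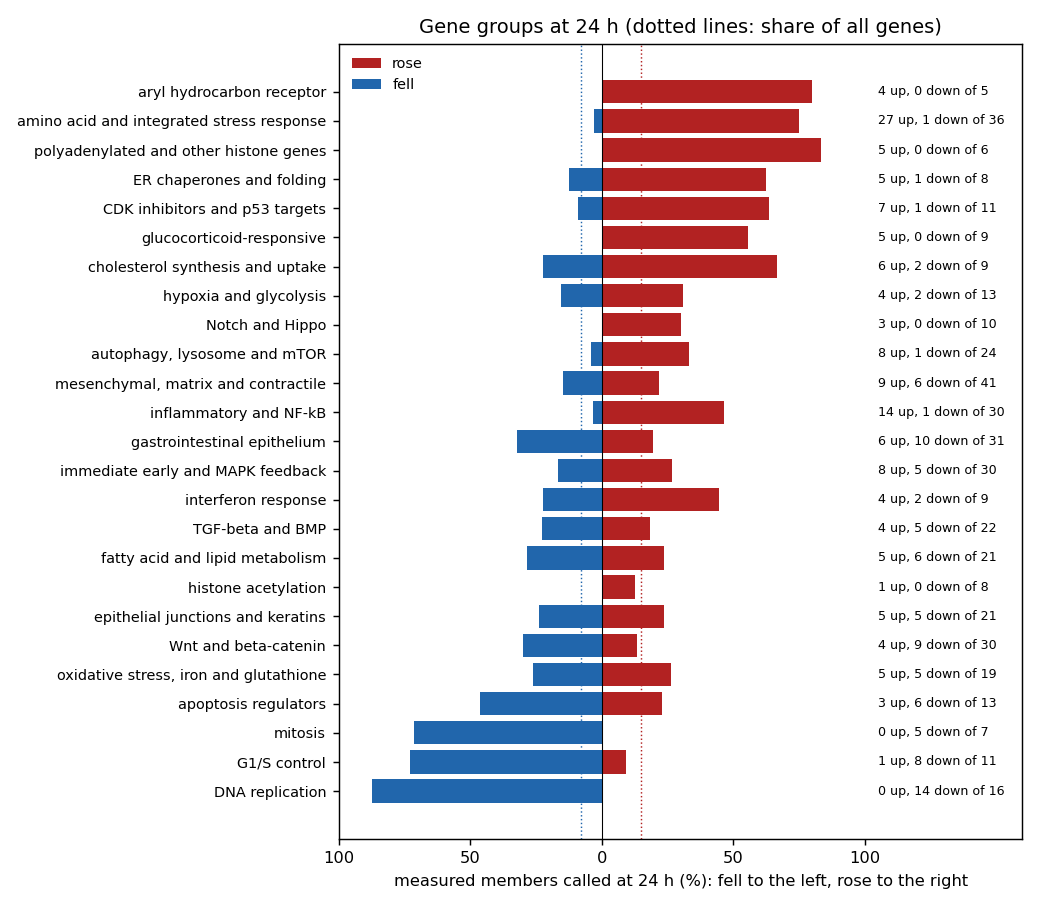
Share of measured members called at 24 h (horizontal axis, percent), risen to the right and fallen to the left. Each gene group with at least 5 measured members is drawn except the cell type markers, ordered by median change. Dotted lines mark the shares of all genes, 14.8% risen and 7.87% fallen. Stress genes (27 of 36 risen) lie near the top and DNA replication (14 of 16 fallen) at the bottom.

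Most of the replication genes that could be read fell. Before each S phase the origin recognition complex and the MCM helicase are loaded on DNA, the GINS proteins complete the helicase, polymerases copy the strands and chaperones such as CAF-1 lay down new histones; E2F factors drive most of these genes. Of 67 listed genes 16 were measured, 14 fell, none rose and 2 were not called (median -1.27). The table held only genes that varied, so this count gives no share for the whole machinery. Quantile normalization also gave 14 falls. The 2 genes not called were POLD3, at 0.56, and DTYMK, at -0.30.

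Promoters of 4 genes are shown because they fell and hold the E2F letters TTTNGCGC or their reverse complement GCGCNAAA, in capitals. They are RefSeq stretches in GRCh38.p14, 5′ to 3′ on the gene's strand.
MCM6: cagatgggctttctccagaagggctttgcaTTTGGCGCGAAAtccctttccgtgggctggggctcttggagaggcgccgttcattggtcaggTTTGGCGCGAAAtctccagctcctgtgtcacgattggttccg
HELLS: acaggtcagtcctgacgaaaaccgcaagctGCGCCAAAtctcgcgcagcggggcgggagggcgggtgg
POLA2: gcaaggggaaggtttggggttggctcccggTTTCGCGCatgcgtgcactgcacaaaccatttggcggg
CDC25A: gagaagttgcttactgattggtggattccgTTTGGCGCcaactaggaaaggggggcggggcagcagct
Their positions are chr2:135876492-135876625 (minus strand), chr10:94545682-94545749 (plus strand), chr11:65261879-65261946 (plus strand) and chr3:48188424-48188491 (minus strand). In MCM6 each run of capitals is a pair of overlapping matches, 1 on each strand. Of 13 measured replication genes that have a promoter in the table, 3 held the motif (23.1%), and of all 27305 promoters 1.83% did. Over all genes the share was 5.83% of 326 fallen genes and 1.92% of 3122 not called. The list and these genes are again only those with a promoter in the table, and no share was tested. CDC25A belongs to the G1/S list below.

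Both licensing genes that were measured fell. MCM6, a subunit of the replicative helicase, read 239, 249 and 216 with DMSO and 60.4, 64.5 and 44.9 with ICG-001 (log2 change -1.79 ± 0.10 (SE), adjusted p = 3.34e-10). ORC1, the largest subunit of the origin recognition complex, fell (-1.51). All 3 GINS subunits that were measured fell. GINS2 read 1778, 1672 and 1809 with DMSO and 485, 462 and 443 with ICG-001 (log2 change -1.88 ± 0.05 (SE), adjusted p = 1.34e-14), GINS3 fell by 1.08 and GINS4 by 1.00 on the log2 scale. In MCM6 and GINS2 no ICG-001 array reached a DMSO array.

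Of the synthesis and supply genes, POLA2, a subunit of polymerase α with primase, had a log2 change of -1.27. PRIM2, a primase subunit, was at -0.91. DSCC1, which helps load the sliding clamp, was at -1.38. RRM1, the large subunit of the enzyme that makes deoxyribonucleotides, read 2398, 2269.9 and 2298 with DMSO and 993, 1088 and 882 with ICG-001 (log2 change -1.22 ± 0.06 (SE), adjusted p = 5.24e-11). Its lowest DMSO array was at least 2-fold above its highest ICG-001 array.

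The genes listed under chromatin assembly all fell, 5 of 5. CLSPN, the checkpoint mediator claspin, which the list places here, was at -1.66. HELLS, a remodeller that keeps DNA methylation in place, read 90.5, 109 and 124 with DMSO and 14.8, 26.2 and 17.2 with ICG-001 (log2 change -1.81 ± 0.15 (SE), adjusted p = 3.89e-08). CHAF1B and CHAF1A, subunits of CAF-1, fell (-1.27 and -1.05). ASF1B, a histone chaperone, read 1602, 1619 and 12581 with DMSO and 778, 695 and 659.7 with ICG-001 (log2 change -2.15 ± 0.50 (SE), adjusted p = 0.00341). The third DMSO array stood far above the other DMSO arrays, and without that array the change was -1.17 (adjusted p = 9.32e-10), still called.

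At 6 h 11 of the 16 replication genes were already called down (median -0.45), against 14 at 24 h. By the difference test 12 of the 16 were lower at 24 h than at 6 h relative to DMSO, and none was higher. GINS2 moved from -0.48 to -1.88 (difference -1.40 ± 0.07 (SE), adjusted p = 7.96e-10), and RRM1 from -0.07, not called at 6 h, to -1.22 (difference -1.16 ± 0.09 (SE), adjusted p = 1.44e-07). MCM6 moved from -0.51 to -1.79 (difference -1.28) and HELLS from -0.45 to -1.81 (difference -1.36). POLA2 was nearly as low at 6 h, -0.95, and its difference was not called.

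Control of entry into S phase followed the same direction: of 29 listed G1/S genes 11 were measured, 8 fell and 1 rose (median -0.88). CCNE2, the cyclin that activates CDK2 at the border of S phase, read 1779, 1821 and 1776 with DMSO and 354, 344 and 338 with ICG-001 (log2 change -2.32 ± 0.05 (SE), adjusted p = 7.2e-16). CDC25A, the phosphatase that frees CDK2 from inhibition, read 719, 688 and 798 with DMSO and 177, 218 and 191 with ICG-001 (log2 change -1.83 ± 0.08 (SE), adjusted p = 4.02e-12). Both were lower in each ICG-001 array than in any DMSO array. SKP2, the ubiquitin ligase subunit that destroys the CDK inhibitor p27, fell (-1.47), and all 3 of its probe sets were called. The E2F side fell as well: E2F8 was at -1.58, E2F1 at -0.85, E2F3 at -0.49 and TFDP1, the dimer partner of E2F factors, at -1.40. RBL1, the RB relative p107, was at -0.88. E2F2 and E2F4 were not called (-0.26 and -0.08). CCND2, a D-type cyclin, was the member that rose (0.45).

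At 6 h 7 of the 11 measured G1/S genes were called down, and by the difference test 6 of the 11 were lower at 24 h and none was higher. TFDP1 and E2F1 had no call at 6 h: TFDP1 went from -0.11 to -1.40 (difference -1.29 ± 0.08 (SE), adjusted p = 2.36e-08) and E2F1 from -0.04 to -0.85 (difference -0.80). CCNE2, already called down at 6 h, went from -0.80 to -2.32 (difference -1.53 ± 0.07 (SE), adjusted p = 1.75e-10). SKP2 was the opposite case, with -1.40 and -1.47 and no called difference.

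Of 62 mitotic genes only 7 were measured, of which 5 fell and none rose (median -0.53). ESCO2, which acetylates cohesin so that sister chromatids hold together, fell (-1.54). BUB1, a spindle checkpoint kinase, was at -0.90, and CDK1, the mitotic kinase, at -0.53. BIRC5, which encodes survivin, a chromosomal passenger protein and described target of this drug, read 2361, 2193 and 2361 with DMSO and 1458, 1398 and 1414 with ICG-001 (log2 change -0.69 ± 0.05 (SE), adjusted p = 3.24e-09, -1.15 after quantile normalization). Its groups did not overlap. At 6 h its change was -0.10 and not called, and the difference between times was -0.59 ± 0.07 (SE), adjusted p = 1.2e-05. ASPM, a spindle pole protein, was called down (-0.44, -0.69 after quantile normalization); the call rested on single arrays, being -0.46 to -0.27 (adjusted p = 0.0534 to 0.16) without ICG-001 replicate 1, 2 or 3 or DMSO replicate 1 or 2. Of 46 repair and checkpoint genes 3 were measured (ATR, FANCM and PMS1) and none was called at its brightest probe set. The other probe set of FANCM was called down, at -0.99.

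Genes that hold the cell cycle back rose, with 3 of 3 measured CDK inhibitors called up. CDKN1A, which encodes p21, read 1098, 1106 and 1219 with DMSO and 2567, 2833 and 2575 with ICG-001 (log2 change 1.21 ± 0.06 (SE), adjusted p = 1.46e-11, 0.74 after quantile normalization). CDKN2B, the p15 inhibitor, rose by 1.21, and CDKN1C, the p57 inhibitor, by 0.97. Every ICG-001 array of CDKN1A was at least 2-fold above the highest DMSO array. Of targets shared with p53 4 rose and 1 fell of 8 measured (4 and 3 after quantile normalization). GDF15, SESN2 and CCNG2 are among the 4 and were already counted as stress effectors. The line is known to lack working p53, and the cause of these rises was not tested. TP53INP1, a stress protein of autophagy, rose by 0.72. AEN, an apoptotic nuclease, fell (-0.55, -0.99 after quantile normalization). MDM2, the ligase that removes p53, was at -0.06 (-0.23 and called after quantile normalization, adjusted p = 0.0236), and TNFRSF10B at 0.05 (-0.23 and called after quantile normalization, adjusted p = 0.012), neither called as deposited. Of the 4 probe sets of MDM2 1 was called up, at 0.52. TNFRSF10B, the death receptor DR5, had been at 1.00 at 6 h, and the difference between times was -0.95 ± 0.09 (SE), adjusted p = 9.17e-07.

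Of 102 listed Wnt pathway genes 30 were measured, of which 4 rose, 9 fell and 17 were not called (median -0.11). After quantile normalization 2 rose and 11 fell. Among ligands and antagonists, SOSTDC1, a secreted antagonist of Wnt and BMP, read 420.4, 385 and 392 with DMSO and 26.5, 20.1 and 14.7 with ICG-001 (log2 change -3.52 ± 0.18 (SE), adjusted p = 5.37e-11). The ICG-001 arrays were near background, below every DMSO array. WNT7B, a ligand, was called up (0.41, 0.24 and not called after quantile normalization), but it was 0.35 (adjusted p = 0.057) without ICG-001 replicate 2. The other 6 members of this role, WNT2B, WNT5B, RSPO3, DKK3, SFRP1 and NOTUM, were not called. At the membrane, LGR5, the R-spondin receptor and stem cell marker, read 365, 359 and 369 with DMSO and 102, 106 and 104 with ICG-001 (log2 change -1.67 ± 0.09 (SE), adjusted p = 6.35e-11). RNF43, the ligase that removes Frizzled receptors, read 400.1, 362 and 367 with DMSO and 185, 207 and 168 with ICG-001 (log2 change -0.96 ± 0.08 (SE), adjusted p = 5.95e-08). Both genes are themselves induced by Wnt signalling, and in both the groups were apart. The Frizzled receptors FZD1 and FZD10 were not called, although the other probe set of FZD1 was called down, at -0.67. None of the 6 intracellular members (CREBBP, TCF7L2, BCL9L, PYGO1, APCDD1 and CTNNBIP1) was called as deposited. TCF7L2, a transcription factor of the pathway, was at -0.19 (-0.37 and called after quantile normalization, adjusted p = 0.0127), and CTNNBIP1, an inhibitor of the binding of β-catenin to such factors, at -0.16 (-0.42 and called after quantile normalization, adjusted p = 0.000789).

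Among 12 measured Wnt targets 6 fell and 3 rose (6 and 2 after quantile normalization). MMP7, the protease matrilysin, read 1743, 1662 and 1605 with DMSO and 419, 396 and 382 with ICG-001 (log2 change -2.02 ± 0.05 (SE), adjusted p = 1.09e-14). SOX4, a transcription factor, had a log2 change of -1.29, MSX1, a homeobox factor, -1.36, and FGF18, a growth factor, -1.22. BMP4 was at -0.91 (-1.40 after quantile normalization). The last of the 6 was BIRC5. The 3 that rose were VEGFA, TIAM1, an activator of the GTPase RAC (1.03), and CD44, the hyaluronan receptor (0.60, 0.06 and not called after quantile normalization). MYCN, L1CAM and TNFRSF19 were not called.

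By the difference test 7 of the 30 Wnt members were lower at 24 h than at 6 h and 1 was higher. MMP7 went from -0.28 at 6 h to -2.02 (difference -1.75 ± 0.07 (SE), adjusted p = 1.1e-10), SOSTDC1 from -2.50 to -3.52 (difference -1.02 ± 0.25 (SE), adjusted p = 0.0138) and LGR5 from -0.90 to -1.67 (difference -0.77 ± 0.12 (SE), adjusted p = 0.000294). With 1 in place of 16 added before the logarithm the difference of SOSTDC1 was -0.72 and not called (adjusted p = 0.433). In SOSTDC1 the drug-treated arrays were low at both times, and the DMSO mean was 144.84 at 6 h and 399.27 at 24 h. RNF43, MSX1 and BMP4 showed no called difference, with 6 h changes of -1.11, -1.24 and -1.02.

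**Figure D3:**
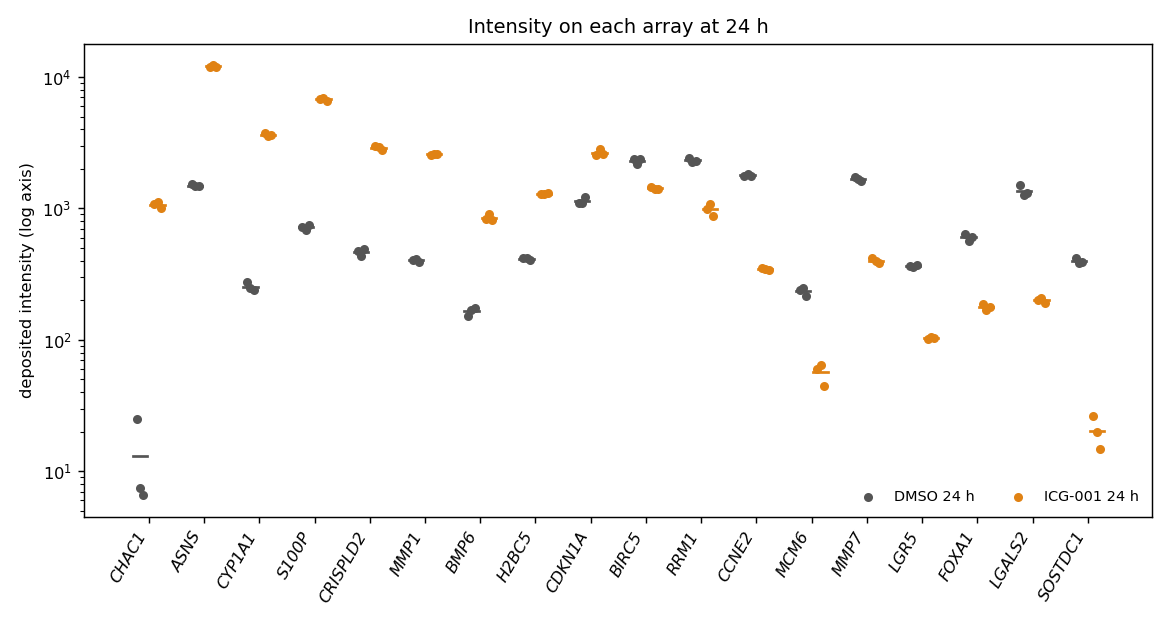
Deposited intensity on each of the 3 DMSO arrays (grey) and 3 ICG-001 arrays (orange) at 24 h for 18 genes, on a logarithmic axis, with a line at each group mean. In every gene drawn the groups are apart, from CHAC1 at the left, where DMSO is near background, to SOSTDC1 at the right, where ICG-001 is.

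The secreted dimers of the TGF-β and BMP family signal through SMAD proteins. Of its 62 listed genes 22 were measured, 4 rose and 5 fell, against 14.8% and 7.87% of all genes. The median was 0.07, and after quantile normalization 2 rose and 5 fell. BMP6 read 151, 168 and 176 with DMSO and 829, 907 and 814 with ICG-001 (log2 change 2.26 ± 0.07 (SE), adjusted p = 1.24e-13), whereas BMP4 read 4374, 4136 and 4347 with DMSO and 2247, 2276 and 2294 with ICG-001 (log2 change -0.91 ± 0.04 (SE), adjusted p = 8.29e-12, -1.40 after quantile normalization). These ligands moved in opposite directions, each without overlap. GDF11, another ligand, fell (-0.61). INHBE, an inhibin chain, was called up (0.58, 0.39 and not called after quantile normalization), but it was 0.49 to 0.51 (adjusted p = 0.0506 to 0.0725) without ICG-001 replicate 3 or DMSO replicate 3. TGFB1, INHBA, FST and GREM1 were not called. BMPR2 was the only receptor of 4 that was called (0.36, 0.14 and not called after quantile normalization). BMP6 went from 0.89 at 6 h to 2.26 (difference 1.37 ± 0.10 (SE), adjusted p = 6.86e-08).

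Inflammatory and NF-κB genes rose in number, 14 of 30 measured against 1 that fell (median 0.20). After quantile normalization 9 rose and 4 fell, so the smaller changes depend on the scaling. IL1A, an alarm cytokine, read 63.9, 72.3 and 89.0 with DMSO and 530.3, 503 and 520.1 with ICG-001 (log2 change 2.56 ± 0.11 (SE), adjusted p = 4.74e-12). IL1B, its relative, read 144, 134 and 144 with DMSO and 469.6, 483 and 468 with ICG-001 (log2 change 1.64 ± 0.07 (SE), adjusted p = 7.35e-12). IL32, another cytokine, read 57.0, 82.0 and 104 with DMSO and 203, 239 and 206 with ICG-001 (log2 change 1.28 ± 0.13 (SE), adjusted p = 5.83e-07). The groups did not overlap in the 3 cytokines. TNFSF15 was called up (0.52, -0.07 and not called after quantile normalization). Among chemokines CCL20, which attracts lymphocytes, rose by 1.33, and the neutrophil attractants CXCL2 and CXCL3 by 1.31 and 0.59. CXCL8, CXCL5, CXCL6 and CCL28 were not called (0.18, -0.14, 0.18 and -0.62). Of the receptors IL20RB rose by 1.61 and the decoy receptor IL1R2 by 0.76. The pathway subunit RELA had a change of 0.42, -0.16 after quantile normalization, so its sign turns with the scaling. TNFSF10, the death ligand TRAIL, was called down (-0.65), but it was -0.60 to -0.48 (adjusted p = 0.0816 to 0.147) without ICG-001 replicate 1 or 2 or DMSO replicate 3.

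By the difference test 4 of the 9 measured chemokines (CXCL2, CXCL3, CXCL8 and CCL20) were lower at 24 h than at 6 h relative to DMSO and none was higher. Of the 9 cytokines 3 were higher (IL1A, IL1B and IL32) and 1, TNFSF15, was lower. CXCL2 was at 2.00 at 6 h and 1.31 at 24 h (difference -0.69 ± 0.17 (SE), adjusted p = 0.0136) and CXCL3 at 1.22 and 0.59 (difference -0.63). After quantile normalization the difference of CXCL2 was -0.56 and not called (adjusted p = 0.0718). The call on CXCL8 was the weakest of these (difference -0.35 ± 0.10 (SE), adjusted p = 0.0415): it was -0.36 to -0.29 and not called (adjusted p = 0.0656 to 0.129) without any 1 of 8 arrays, namely ICG-001 replicates 1, 2 and 3 and DMSO replicates 1 and 2 at 6 h, and ICG-001 replicate 1 and DMSO replicates 1 and 2 at 24 h. CCL20 and TNFSF15 differed by -0.28 and -0.28. IL1A, interleukin-1α, went from 1.95 to 2.56 (difference 0.61, but 0.30 and not called over the mean of its probe sets, adjusted p = 0.234), IL1B from 0.66 to 1.64 (difference 0.98 ± 0.10 (SE), adjusted p = 3.49e-06), and IL32 from 0.17 to 1.28 (difference 1.11 ± 0.19 (SE), adjusted p = 0.000531). In IL32 the ICG-001 mean was 255.54 at 6 h and 215.94 at 24 h, while the DMSO mean went from 225.11 to 81.06. Only 9 of 45 interferon-response genes were measured, with 4 risen and 2 fallen. IRF7 and IRF9, factors of the interferon response, rose by 1.41 (0.93 after quantile normalization) and 1.23. PSMB9, an immunoproteasome subunit, rose by 0.83 (0.49 after quantile normalization). IFIT1, an antiviral effector, fell (-0.73).

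Of the aryl hydrocarbon receptor group, genes switched on when this ligand-bound factor enters the nucleus, 4 of 5 measured rose. CYP1A1, the oxidase most used as its readout, read 275, 249 and 238 with DMSO and 3749, 3543 and 3633 with ICG-001 (log2 change 3.76 ± 0.06 (SE), adjusted p = 5.38e-17). AHRR, the repressor of the receptor, read 1551, 1455 and 1374 with DMSO and 3472, 3484 and 3503 with ICG-001 (log2 change 1.25 ± 0.05 (SE), adjusted p = 4.94e-12, 0.67 after quantile normalization). CYP1B1, a further oxidase, read 529, 514 and 563 with DMSO and 1196, 1409 and 1215 with ICG-001 (log2 change 1.22 ± 0.06 (SE), adjusted p = 6.56e-11), and all 3 of its probe sets rose. The ICG-001 arrays were the higher ones throughout. The fourth was SLC7A5, and ARNT, the receptor's partner, was not called (-0.13). CYP1A1 grew from 2.08 at 6 h to 3.76 (difference 1.68 ± 0.09 (SE), adjusted p = 1.48e-09), with a DMSO mean of 384.17 at 6 h and 253.76 at 24 h.

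Of the histone genes read most rose, whereas most replication genes read fell. Most histone transcripts are made in S phase and carry no poly(A) tail, but some members also give tailed transcripts, which the labelling of this array type can reach. Of 31 listed genes 6 were measured and 5 rose (median 0.95). H2BC5 read 418, 416 and 408 with DMSO and 1283, 1284 and 1312 with ICG-001 (log2 change 1.61 ± 0.05 (SE), adjusted p = 2.38e-13). H2AC6 was at 1.49, H2BC21 at 1.02, H4C8 at 0.88 and H1-2 at 0.52 (0.33 after quantile normalization). These genes have close copies in the same clusters, so reads of one member are uncertain. H2BC5 grew from 0.18 at 6 h to 1.61 (difference 1.43 ± 0.07 (SE), adjusted p = 1.48e-09). Of 8 measured genes of histone acetylation only HDAC9, a deacetylase, was called (1.05).

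Proteases and matrix genes changed in both directions, 9 risen and 6 fallen of 41 measured (median 0.20, and 6 risen and 7 fallen after quantile normalization). Over all 5250 genes 14.8% rose and 7.87% fell, and after quantile normalization 515 rose and 658 fell. MMP1, interstitial collagenase, read 406, 414 and 394 with DMSO and 2534, 2585 and 2609 with ICG-001 (log2 change 2.62 ± 0.05 (SE), adjusted p = 3.18e-16), the reverse of MMP7. MMP14, a membrane-bound protease, rose by 1.21. LAMB3, a chain of laminin 332 in epithelial basement membrane, read 1688, 1753 and 1924 with DMSO and 6086, 6374 and 6049 with ICG-001 (log2 change 1.78 ± 0.05 (SE), adjusted p = 3.53e-14, 1.18 after quantile normalization). COL7A1, the anchoring collagen of the same membrane, rose by 1.02. In MMP1 and LAMB3 the groups were far apart. THBS1, thrombospondin, was called up (0.66, 0.07 and not called after quantile normalization). The falls included COL5A2, a fibrillar collagen (-0.94), ITGB8, an integrin that activates TGF-β (-0.87), and SYNM, an intermediate filament protein (-0.74). Classical mesenchymal genes VIM, FN1, CDH2, SNAI1 and ACTA2 were not called (-0.12, 0.11, -0.09, 0.40 and 0.03).

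By the difference test 9 members of that group were higher at 24 h than at 6 h and 2 were lower. MMP1 went from 0.73 to 2.62 (difference 1.89 ± 0.07 (SE), adjusted p = 2.64e-11). COL7A1 went from 0.00 to 1.02 (difference 1.01), and THBS1 from -0.17, a called fall at 6 h, to 0.66 (difference 0.84). The lower members were MMP7 and COL5A2.

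Genes of gastrointestinal lineage and secretion fell more often than they rose, 10 against 6 of 31 measured, although the median over all 31 was 0.13. MYB, a progenitor transcription factor, read 372, 354 and 339 with DMSO and 53.9, 44.5 and 52.2 with ICG-001 (log2 change -2.49 ± 0.11 (SE), adjusted p = 8.29e-12). FOXA1, a pioneer factor of endoderm, read 642, 563 and 609.5 with DMSO and 186, 167 and 179 with ICG-001 (log2 change -1.68 ± 0.08 (SE), adjusted p = 1.27e-11). NR0B2, the orphan receptor SHP of bile acid control, read 504, 392 and 423 with DMSO and 89.7, 103 and 112 with ICG-001 (log2 change -1.95 ± 0.12 (SE), adjusted p = 4.91e-10). All 3 fell without overlap, but MYB and FOXA1 each have a second probe set that was not called, and their changes over the mean of both were -1.29 and -1.02. GATA4, SOX2, PDX1, NR5A2 and ONECUT2 were not called (0.36, 0.18, -0.17, 0.33 and 0.30).

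Of the enterocyte and surface genes, LGALS2, galectin-2, read 1511, 1260.4 and 1317 with DMSO and 202, 208 and 190.3 with ICG-001 (log2 change -2.67 ± 0.07 (SE), adjusted p = 1.59e-14). TM4SF4, a tetraspan-type membrane protein, read 1666, 1501 and 1428 with DMSO and 309, 344 and 336 with ICG-001 (log2 change -2.16 ± 0.06 (SE), adjusted p = 8.17e-14). In both the ICG-001 arrays were the lower ones and the groups were apart. AGR3, a secretory-pathway protein, fell (-0.80) near background. Mucin and secreted genes were mixed, with 5 risen, 3 fallen and 7 not called of 15 measured (5 risen and 4 fallen after quantile normalization). PSCA, a surface antigen of prostate and pancreatic tumours, rose by 1.51, CEACAM1, an adhesion molecule, by 1.05 (0.64 after quantile normalization), and the trefoil peptides TFF2 and TFF1 by 0.78 (0.21 after quantile normalization) and 0.65 (0.40 after quantile normalization). CEACAM7 rose by 1.34 from DMSO intensities at background (1.37, 5.79 and 4.46). S100P, a calcium-binding protein abundant in pancreatic cancer, read 727, 686 and 753 with DMSO and 6851, 6909 and 6527 with ICG-001 (log2 change 3.20 ± 0.05 (SE), adjusted p = 1.72e-17). MUC1, at 0.13 (-0.28 and called after quantile normalization, adjusted p = 0.00084), MUC4 and MUC5AC were not called as deposited, although the other probe set of MUC4 was called up, at 0.79.

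Epithelial junction and keratin genes gave 5 rises and 5 falls of 21 measured, against 14.8% and 7.87% of all genes (2 and 7 after quantile normalization, against 515 and 658 of 5250). CLDN7 and OCLN, tight junction proteins, rose by 0.93 (0.34 after quantile normalization) and 0.69 (0.30 after quantile normalization). KRT7, a duct keratin, fell (-1.01), with -0.41 over the mean of its probe sets, and KRT23 fell (-0.74). CDH1, which encodes E-cadherin, was not called (0.15).

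Growth factor signalling genes gave 8 rises and 5 falls of 30 measured, against 14.8% and 7.87% of all genes. HBEGF, a ligand of the EGF receptor, read 592, 509 and 496 with DMSO and 1598, 1544 and 1569.9 with ICG-001 (log2 change 1.54 ± 0.07 (SE), adjusted p = 8.05e-12). ERRFI1, an inhibitor of the same receptor, rose by 1.08 (0.49 after quantile normalization). MAFF and FOSL2, early-response factors, rose by 1.05 (0.44 after quantile normalization) and 1.02. FGFR4, a receptor for bile-acid-related FGF19, read 259.6, 288 and 317 with DMSO and 116, 146 and 148 with ICG-001 and fell by 1.00 ± 0.10 (SE) on the log2 scale (adjusted p = 3.37e-07), and SPRY1 and DUSP5, feedback inhibitors of MAPK signalling, fell (-0.68 and -0.67). EGR1 was not called (0.54), although its other probe set was called up, at 0.76. FGF2 fell (-0.32, -0.57 after quantile normalization) after a rise of 0.73 at 6 h (difference -1.05 ± 0.10 (SE), adjusted p = 1.18e-06).

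Glucocorticoid-responsive genes rose in 5 of 9 measured members. CRISPLD2, a secreted protein that binds lipopolysaccharide, read 473, 434 and 490.3 with DMSO and 2966, 2951 and 2784 with ICG-001 (log2 change 2.60 ± 0.06 (SE), adjusted p = 2.27e-15). TSC22D3, which encodes GILZ, read 387, 372 and 379 with DMSO and 2122, 2197 and 2105 with ICG-001 (log2 change 2.45 ± 0.05 (SE), adjusted p = 5.86e-16). Both were apart between groups, and TSC22D3 was at 1.36 over the mean of its 3 probe sets. GLUL, KLF9, BCL6 and MT1X were not called. CRISPLD2 had the largest positive difference between the times of the genes named by the difference rule, from 0.27 at 6 h to 2.60 (difference 2.33 ± 0.08 (SE), adjusted p = 2.64e-11).

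The cholesterol group had 6 rises and 2 falls of 9 measured (4 and 2 after quantile normalization). ABCA1, which exports cholesterol, read 76.7, 104 and 107 with DMSO and 276, 330.3 and 304 with ICG-001 (log2 change 1.52 ± 0.13 (SE), adjusted p = 3.99e-08), and ABCG1, its partner, rose by 1.60. INSIG1, the sterol-controlled brake on SREBP, rose by 0.67 (0.29 after quantile normalization). DHCR7, the last enzyme of the synthesis, fell (-0.68), and STARD4, a sterol carrier, fell (-0.55) after a called rise of 0.31 at 6 h (difference -0.86 ± 0.11 (SE), adjusted p = 4.07e-05). ABCA1 was not called at 6 h (0.35), and the difference was 1.16 ± 0.18 (SE), adjusted p = 0.000244. Among fatty acid genes 5 rose and 6 fell of 21 measured, against 14.8% and 7.87% of all genes (2 and 9 after quantile normalization, against 515 and 658 of 5250). FABP4, a fatty acid carrier, read 1137, 1162 and 1255 with DMSO and 334, 401 and 352 with ICG-001 (log2 change -1.67 ± 0.07 (SE), adjusted p = 2.68e-12). ACOX2, a peroxisomal oxidase of bile acid precursors, was at -1.52, and FADS3, a desaturase relative, rose by 1.47.

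Autophagy and mTOR genes rose in 8 of 24 measured members and fell in 1. ULK1, the kinase that starts autophagy, read 103, 83.6 and 95.9 with DMSO and 392, 398 and 404 with ICG-001 (log2 change 1.91 ± 0.09 (SE), adjusted p = 1.03e-11), with no overlap. WIPI1, which builds the early membrane, rose by 1.22, and MAP1LC3B, the LC3 protein of that membrane, by 0.88 (0.34 after quantile normalization). TFEB, a regulator of lysosomal genes, rose by 0.54 (0.28 after quantile normalization). CASTOR2, of the family of arginine sensors upstream of mTORC1, fell (-0.49, -0.75 after quantile normalization). ULK1 was at 2.74 at 6 h (difference -0.83 ± 0.12 (SE), adjusted p = 0.00014) and MAP1LC3B at 1.56 (difference -0.68), so both were nearer to 0 at 24 h.

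Iron and redox genes gave 5 rises and 5 falls of 19 measured (3 and 5 after quantile normalization). Of the 5 fallen genes 3 handle iron. SLC11A2, the ferrous iron importer, was at -1.13, TFRC, the transferrin receptor, at -1.03, and SLC40A1, the exporter ferroportin, read 1518, 1493 and 1534 with DMSO and 794, 785 and 810.5 with ICG-001 (log2 change -0.91 ± 0.05 (SE), adjusted p = 1.94e-10). GPX2, a gastrointestinal glutathione peroxidase, fell (-0.77), and GPX8, an ER peroxidase, rose by 0.98 (0.62 after quantile normalization). SLC40A1 was lower at 6 h, -1.54 (difference 0.62 ± 0.07 (SE), adjusted p = 1.31e-05). HMOX1, haem oxygenase, was called up slightly (0.23, -0.03 and not called after quantile normalization) after a called fall of -0.51 at 6 h (difference 0.74 ± 0.08 (SE), adjusted p = 8.7e-06). Of hypoxia genes 4 rose and 2 fell of 13 measured, against 14.8% and 7.87% of all genes. NDRG1 rose by 1.56 (0.89 after quantile normalization) and MXI1, a MYC antagonist, by 1.20 (0.62 after quantile normalization), whereas TPI1, a glycolytic enzyme, and CA12, a carbonic anhydrase, fell (-1.08 and -0.81).

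Apoptosis regulators fell in 6 and rose in 3 of 13 measured members. Of 3 measured anti-apoptotic members 2 rose and 1 fell. BCL2 and MCL1, which protect cells, rose by 0.70 and 0.51 (0.24 after quantile normalization). BAD, which counters them, fell (-0.70), as did DFFB, the nuclease that cuts DNA in dying cells (-0.89). The decoy receptors TNFRSF10C and TNFRSF10D fell (-0.73 and -0.51), and TNFRSF25, a death receptor, rose by 1.31. The calls of BAD and TNFRSF10C rested on single arrays. BAD was -0.66 to -0.53 (adjusted p = 0.0689 to 0.12) without ICG-001 replicate 2 or 3 or DMSO replicate 1 or 2. TNFRSF10C was -0.57 (adjusted p = 0.0701) without DMSO replicate 1. Other lists held few calls: of 3 measured heat shock genes none was called, and of 3 ribosome biogenesis genes NOLC1, a nucleolar protein, fell (-0.95). Of 10 Notch and Hippo genes 3 rose, against 14.8% of all genes. AJUBA, a scaffold that restrains LATS kinases, led them (1.00, 0.40 after quantile normalization). Of 3 metallothioneins MT1E rose (0.33, 0.20 and not called after quantile normalization).

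Among the 20 largest rises and 20 largest falls in genes with a mean intensity of at least 50 in the higher group, several belong to none of these groups. KIF21B, a kinesin motor, read 57.1, 72.7 and 72.7 with DMSO and 527, 533 and 495 with ICG-001 (log2 change 2.68 ± 0.10 (SE), adjusted p = 1.77e-12). DHRS2, a mitochondrial dehydrogenase, read 73.3, 99.2 and 114 with DMSO and 556, 559.9 and 589 with ICG-001 (log2 change 2.41 ± 0.12 (SE), adjusted p = 2.77e-11). CSTA, cystatin A, an inhibitor of cysteine proteases, read 8.58, 14.4 and 11.9 with DMSO and 109, 143 and 109.9 with ICG-001 (log2 change 2.30 ± 0.17 (SE), adjusted p = 7.98e-09). These rises came from low DMSO values. FNDC4, a secreted fibronectin-type protein, rose by 2.35, and BEX2 by 2.14.

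Among the falls, FAM111B, which is known to vary with the cell cycle, read 553, 502 and 433 with DMSO and 74.3, 67.4 and 75.2 with ICG-001 (log2 change -2.53 ± 0.11 (SE), adjusted p = 4.18e-12). APLP1, a relative of the amyloid precursor protein, read 536, 439.7 and 589 with DMSO and 90.6, 115 and 121 with ICG-001 (log2 change -2.10 ± 0.10 (SE), adjusted p = 3.74e-11). In both the ICG-001 arrays were the lower ones, without overlap, which the choice of these genes required. WDR76, TCF19, BCL2L15 and NREP fell too (-1.72, -1.70, -1.68 and -1.67).

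The later response was set against the earlier over all genes, in comparisons that share no array. At 6 h 708 genes were called, 447 risen (8.51%) and 261 fallen (4.97%). Of the genes called at 24 h 572 were called the same way at 6 h, which is 48% of the 24 h genes and 80.8% of the 6 h genes, and 598 were not called at 6 h. Of the 779 rises 267 were further from 0 at 24 h by the difference test, 58 were nearer and 454 showed no called difference. Of the 413 falls these numbers were 139, 11 and 263. Over the 5250 genes the changes at the 2 times had a Pearson r of 0.62 and a Spearman rho of 0.41, as a description across genes, which are not independent. Of the rises 14 were called falls at 6 h, and of the falls 8 were called rises.

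**Figure D4:**
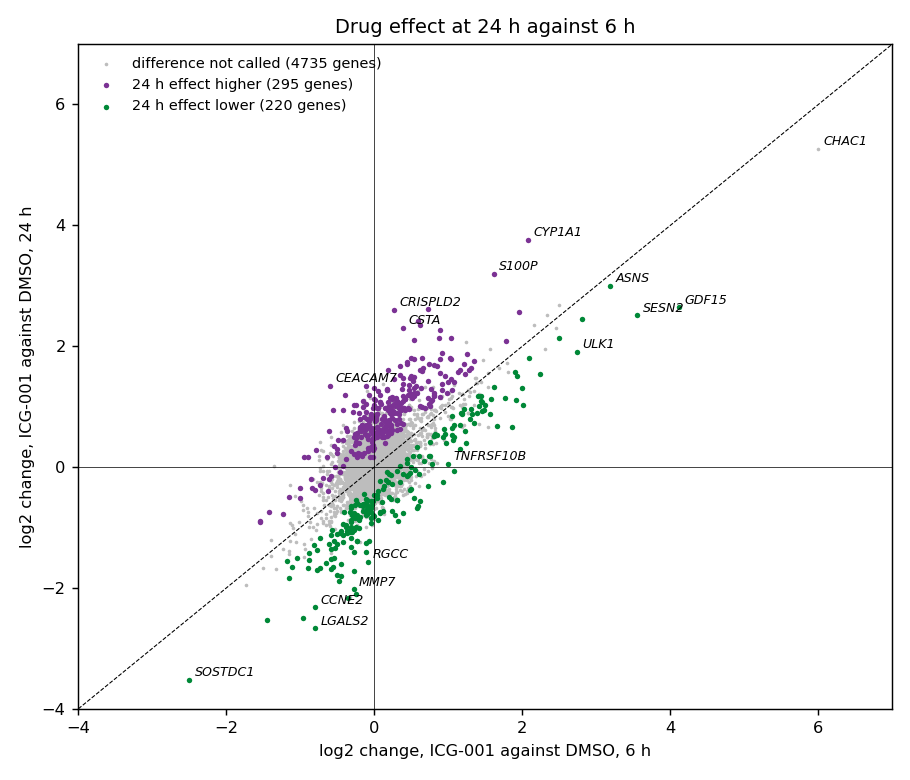
Log2 change at 24 h (vertical) against that at 6 h (horizontal) for 5250 genes; the dashed line marks equal changes, purple the 295 genes with a higher and green the 220 with a lower 24 h effect by the difference test. CRISPLD2 and CYP1A1 lie above the line, GDF15, SESN2 and LGALS2 below it.

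The 8 most positive differences among genes with a mean intensity of at least 50 in some group were CRISPLD2, CSTA, MMP1, DHRS2, FNDC4, CYP1A1, S100P and MBD5. CSTA went from 0.39 to 2.30 (difference 1.91 ± 0.24 (SE), adjusted p = 3.27e-05) and DHRS2 from 0.59 to 2.41 (difference 1.82 ± 0.16 (SE), adjusted p = 9.04e-07). FNDC4 went from 0.62 to 2.35 (difference 1.73) and S100P from 1.61 to 3.20 (difference 1.59). MBD5, a methyl-CpG-binding domain protein, went from -0.40 to 1.19 (difference 1.58). The 8 most negative were LGALS2, APLP1, TM4SF4, MMP7, CCNE2, MYB, RGCC and GDF15. LGALS2 went from -0.80 to -2.67 (difference -1.87 ± 0.10 (SE), adjusted p = 1.64e-09) and APLP1 from -0.25 to -2.10 (difference -1.85 ± 0.15 (SE), adjusted p = 2.03e-07). TM4SF4 went from -0.36 to -2.16 (difference -1.81) and MYB from -0.97 to -2.49 (difference -1.52). RGCC, a regulator of the cell cycle and complement response, went from -0.09 to -1.57 (difference -1.49), and over the mean of its probe sets its change at 24 h was -0.60 and its difference -0.63, not called (adjusted p = 0.161).

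Some of these differences came with a moving vehicle level. Between the DMSO arrays at 6 h and 24 h 467 genes were called (8.9%), of which 282 were higher (5.37%) and 185 lower (3.52%) at 24 h, and these share the 24 h DMSO arrays with the main comparison. Mean DMSO intensity was 1506.72 at 6 h and 721.94 at 24 h for S100P, and 694.06 and 1362.76 for LGALS2. It was 105.99 and 354.87 for MYB, and 109.34 and 333.88 for RGCC. In these last genes the ICG-001 mean hardly moved, from 46.35 to 50.22 in MYB and from 101.95 to 102.10 in RGCC. The DMSO mean was 468.58 and 404.73 for MMP1, and 1605.09 and 1670.16 for MMP7. In MMP7 the drug-treated mean went from 1322.44 to 399.33 while the DMSO mean did not change by the test.

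**Figure D5:**
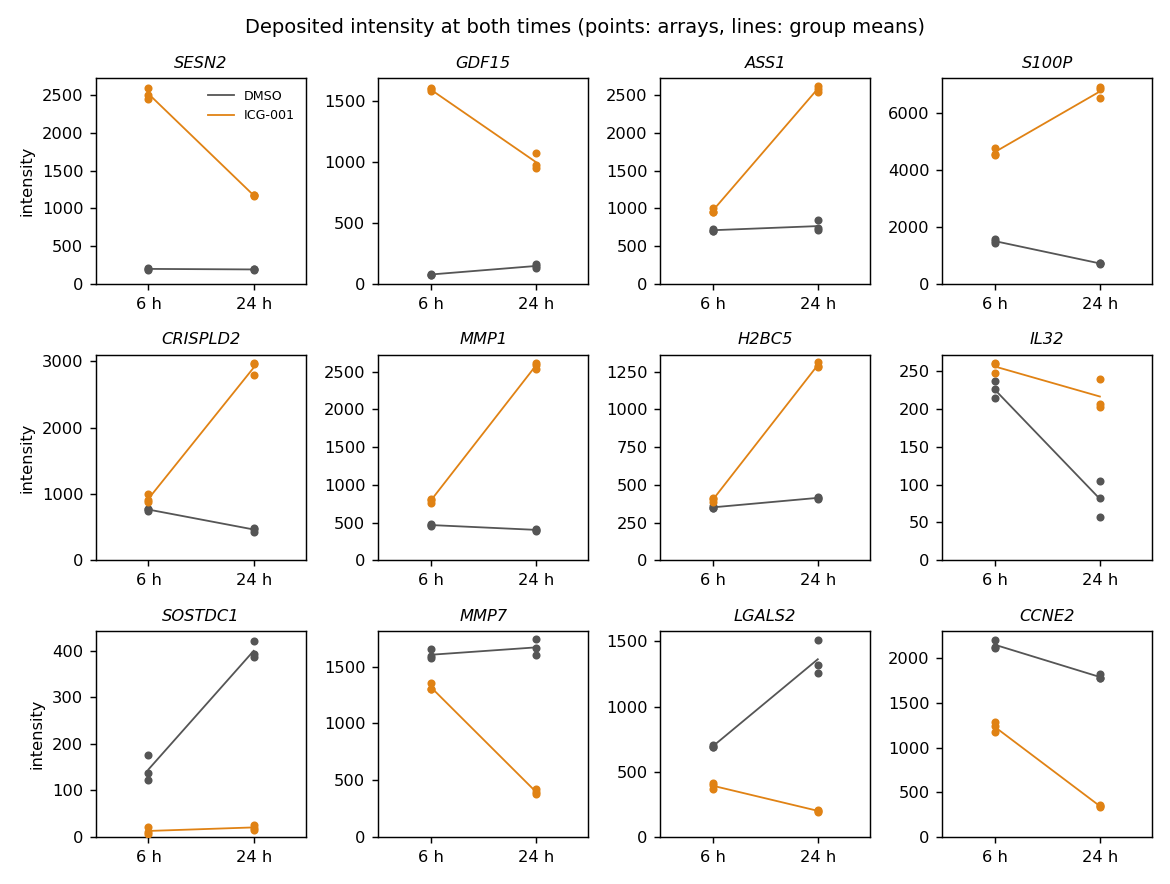
Deposited intensity at 6 h and 24 h for 12 genes, with a point for each array and lines joining the group means, DMSO in grey and ICG-001 in orange. SESN2 and GDF15 are highest with ICG-001 at 6 h, MMP1 and H2BC5 rise with ICG-001 between the times, and in SOSTDC1 and IL32 it is mainly the DMSO mean that moves.

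Genes with several probe sets and dim genes limit single values. Of the called genes 302 had more than 1 probe set, and in 9 of them another probe set was called the other way. When the probe sets of a gene were averaged, the log2 change moved by over 1.5 times and stayed called in MYB (-1.29), FOXA1 (-1.02), IL1A (1.38), TSC22D3 (1.36), TRIB3 (1.43), RGCC (-0.60), CCNG2 (0.44), CHAF1A (-0.51), CXCL2 (0.47), GINS4 (-0.48), KRT7 (-0.41), LGR5 (-1.02), MCL1 (0.28), SLC11A2 (-0.56) and THBS1 (0.41). It was no longer called in ALDH1L2 (0.09), BMPR2 (0.23), ITGB8 (-0.44) and XBP1 (0.24). With 64 in place of 16 added before the logarithm, which presses dim genes further towards 0, the log2 changes that moved by over 1.5 times were HELLS (-1.04), CSTA (1.28), BEX2 (1.32), MBD5 (0.62), AGR3 (-0.29), ALDH1L2 (-0.21), BAD (-0.38), CANX (0.42), CEACAM7 (0.53), FGF18 (-0.75), GDF11 (-0.33), H4C8 (0.56), IL1R2 (0.42), INHBE (0.29), TFRC (-0.64), TIAM1 (0.63), TNFRSF10C (-0.31), TNFSF10 (-0.33), TP53INP1 (0.43) and WIPI1 (0.75). All of these stayed called.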

How the data were processed

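Total RNA of AsPC-1 cells was labelled with biotin and hybridised to Affymetrix arrays, per the labels' protocols. The authors deposited 1 linear intensity per probe set and array. How they summarised and scaled these intensities and chose the probe sets is not given in the sources used here. Precision is limited by the 3 arrays a group. Of 9554 probe sets 6442 have 1 gene symbol, 252 several and 2860 none in GEO's platform annotation, and 6432 of the 6442 matched RefSeq by gene identifier.

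The 12 drug arrays were fitted as 4 group means with limma 3.58.1 (lmFit, eBayes with an intensity trend) in R 4.3.3, on log2(intensity + 16) of the deposited values, without further scaling. Tests were two-sided, with 8 residual degrees of freedom, and the script was tested on simulated data. Alternatives changed the scaling, the number added, a filter on dim probe sets, the arrays fitted, the replicate block, the prior spread, the reading of genes and each array in turn. Named genes are the 20 largest rises and falls with separate groups and a mean of at least 50, the 8 most positive and negative differences between times, listed members, and 8 genes given wherever measured (BIRC5, CDKN1A, CREBBP, CCND1, MYC, AXIN2, EP300 and CTNNB1). The comparison, the lists, the motifs and the choice to keep the deposited scaling were made with earlier results of these data known.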

Additional observations from a re-analysis of the deposited data

Results flagged for a closer look

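The drug effect, ICG-001 minus DMSO on the log2 scale, differed between 24 h and 6 h in the genes below, by limma's test of the difference itself over the 12 drug arrays (adjusted p under 0.05 over 6442 probe sets). Each value is the 24 h effect minus the 6 h effect, and no explanation was tested.

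In genes that rose at 24 h, the later effect was higher in CRISPLD2 (2.33), CSTA (1.91), MMP1 (1.89), DHRS2 (1.82), FNDC4 (1.73), CYP1A1 (1.68), S100P (1.59), MBD5 (1.58), H2BC5 (1.43), BMP6 (1.37), ASS1 (1.30), ABCA1 (1.16), IL32 (1.11), COL7A1 (1.01), IL1B (0.98), THBS1 (0.84), HMOX1 (0.74), SLC7A5 (0.62), IL1A (0.61) and WARS1 (0.45). It was lower in the risen genes GDF15 (-1.47), CCNG2 (-1.20), SESN2 (-1.04), ULK1 (-0.83), MTHFD2 (-0.81), CXCL2 (-0.69), MAP1LC3B (-0.68), CXCL3 (-0.63), DDIT3 (-0.61), CCL20 (-0.28) and TNFSF15 (-0.28), and in TNFRSF10B (-0.95) and CXCL8 (-0.35), which were called at 6 h and not at 24 h.

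In genes that fell at 24 h, the later effect was lower in LGALS2 (-1.87), APLP1 (-1.85), TM4SF4 (-1.81), MMP7 (-1.75), CCNE2 (-1.53), MYB (-1.52), RGCC (-1.49), GINS2 (-1.40), HELLS (-1.36), TFDP1 (-1.29), MCM6 (-1.28), RRM1 (-1.16), FGF2 (-1.05), SOSTDC1 (-1.02), STARD4 (-0.86), E2F1 (-0.80), LGR5 (-0.77) and BIRC5 (-0.59). SLC40A1 (0.62) was the fallen gene of these whose effect was nearer to 0 at the later time.

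Outside the genes read, 3112 probe sets had no gene symbol or several. In a fit over all 9554 probe sets 325 of them were called at 24 h (10.4%), 253 higher and 72 lower with ICG-001, with log2 changes from -1.60 to 2.93.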

How the results depend on the processing

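The calls at 24 h numbered 1036 to 1258 over all alternatives against 1192, those at 6 h 598 to 791 against 708, and those of the difference between times 381 to 592 against 515. The share of called genes that rose was 65.4%, but 43.9% and 43.8% after quantile normalization over 16 and over 12 arrays and 48.3% after median centring, and the cause was not tested. Other alternatives gave 64.1% to 70.0%. Of 187 called genes named in the text 169 kept direction and call under every alternative, and 7 lost the call when an array was left out, as given beside them. Reversed values were ALDH1L2 at 0.09 over the mean of its probe sets (adjusted p = 0.736), and, after quantile normalization over 16 and 12 arrays, HMOX1 at -0.03 and -0.03, RELA at -0.16 and -0.17 and TNFSF15 at -0.07 and -0.07. Of the 52 differences between times 45 kept direction and call throughout, and 1, CXCL8, lost the call when an array was left out. Replicate numbers did not pair the arrays: deviations from group means of equally numbered arrays correlated at -0.125 to 0.084. With the replicate block 1176 genes were called at 24 h, 698 at 6 h and 487 by the difference, and ALDH1L2 was the named gene that lost its call (-0.55, adjusted p = 0.0602). The signal over background limits dim genes: 532 of 57324 values at 24 h were exactly 1.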
